A study of Mus musculus with 8 samples.

Results

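Intraflagellar transport, BBSome and manchette transport genes encode the machinery that carries material along microtubules while a round spermatid builds its flagellum and shapes its head. A total of 35 such genes were followed here, 11 of the intraflagellar transport complex B (IFT-B), 4 of complex A (IFT-A), 7 of the BBSome, 4 of kinesin-2, 2 of dynein-2, 2 other kinesin genes and 5 linkers of the manchette or flagellum. They are 35 of the 18193 genes that the array names singly. They were chosen by name and not by level, but with earlier results of these data known. A gene with several probe sets is represented by the 1 with the highest mean level over the 8 arrays. All 35 genes were measured, by 62 probe sets in total, and all 35 reached a signal of 100 or more on at least 4 arrays, the definition of an expressed probe set used below. Late spermatocytes and round spermatids were purified from testes of Hr6b knockout (Hr6b-/-) and wild type (Hr6b+/+) male mice on the FVB background, 4 to 5 weeks old. Hr6b, also named Ube2b, encodes a ubiquitin-conjugating enzyme, and all the cells of a knockout animal lack it, while the closely related X-linked gene Hr6a is still present in both genotypes. Both genotypes came from the same backcross generation (over 20), and the cell fractions were over 80% pure by staining. Each of the 4 groups (knockout spermatids, wild type spermatids, knockout spermatocytes and wild type spermatocytes) was hybridised to 2 Affymetrix Mouse Genome 430 2.0 arrays.

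In intraflagellar transport, trains of IFT-B and IFT-A particles move along the microtubules of a cilium or flagellum. Kinesin-2 pulls them to the tip, dynein-2 brings them back, and the BBSome links membrane cargo to them. The manchette is a transient sleeve of microtubules around the nucleus of the elongating spermatid, along which vesicles and flagellar proteins travel. Spermatocytes have no flagellum to build, and in round spermatids the axoneme begins to grow from the centriole. Mice without Bbs2 or Bbs4 make sperm without flagella, and the azh mouse, with abnormal sperm heads, carries a mutated Hook1. In the testis KIF17 is also known to move ACT, a coactivator of the spermatid transcription factor CREM, between nucleus and cytoplasm.

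Ciliary genes are often bound at an X-box by RFX transcription factors, and CREM binds the cAMP response element (CRE). Both motifs were searched on both strands in the RefSeq promoters (GRCm38.p6, 250 bases before to 50 after the gene start), of which 30 of the 35 genes had 1. The X-box, searched as GTNNCC and GNAAC with any 3 bases between them, was found in 4 of the 30 promoters (13.3%), against 2.17% of all 32851 promoters, and the CRE, TGACGTCA, in 2 (6.67%), against 1.79%. Only this spacing of the X-box was searched, so X-boxes with another spacing were neither counted nor marked, also in the windows below. The windows below are shown because Kif17, Bbs4 and the others are described below, and the capitals mark the motif. The Kif17 window is chr4:138262145-138262192, the Ift57 windows are chr16:49699112-49699159 and chr16:49699187-49699240, all on the plus strand, and the Bbs7 window is chr3:36613477-36613530 on the minus strand. Of Bbs4 (chr9:59353472-59353485) and Bbs1 (chr19:4906613-4906626), both on the minus strand, the match lies just after the gene start and it alone is given. The X-box of Ift57 and Bbs1 reads on the opposite strand.
Kif17 CRE: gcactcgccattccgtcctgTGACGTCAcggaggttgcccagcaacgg
Ift57 CRE: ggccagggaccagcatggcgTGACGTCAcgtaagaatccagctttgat
Ift57 X-box: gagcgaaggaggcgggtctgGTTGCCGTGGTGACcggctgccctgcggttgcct
Bbs7 X-box: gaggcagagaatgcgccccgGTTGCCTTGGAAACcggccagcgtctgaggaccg
Bbs4 X-box: GTCGCCCGGGAAAC
Bbs1 X-box: GTTGCCAAGGCGAC
These matches describe letters only. No binding was measured.

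Signal is the deposited log2 value put back on the linear scale, and a log2 difference of 1 is 2-fold. Levels of different genes are not set against each other, since probe sets differ in brightness. By their suffix, the probe sets of Ift81, Ift122, Bbs4 and Kifc1 (_s_at) match several transcripts and that of Ift27 (_x_at) may bind related ones, so these values are less certain. Ube2b had a signal of 951 and 1061 in knockout spermatids, against 4600 and 4612 in wild type spermatids, and of 833 and 824 in knockout spermatocytes, against 2855 and 3349 in wild type spermatocytes. The genotypes were therefore as labelled. Replicate arrays correlated at r = 0.995 to 0.997. All 15 spermatid markers (Prm1, Tnp1, Acrv1 and others) were called higher in spermatids than in spermatocytes in both genotypes, while of 10 spermatocyte markers 5 were lower and 3 higher in wild type spermatids. The differences were tested with limma across 45037 probe sets, and called is used below for a Benjamini-Hochberg adjusted p under 0.05. With 2 arrays a group a permutation test cannot give a p under 0.333. Nothing in the labels states that the arrays came from separate mice, so the p-values measure the spread between these arrays only. Where arrays of the genotypes are said below not to overlap, this describes the same values as the call and is no separate evidence. It also held in spermatids for genes that were not called, such as Traf3ip1 and Clip1.

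In Hr6b knockout spermatids, 4 of the 35 genes rose and 7 fell. The genes that rose were Klc3, Bbs9, Ift172 and Kif17, and those that fell were Bbs4, Bbs2, Wdr35, Ift80, Mns1, Hook1 and Ift122. None of them changed as much as 2-fold. The 11 called genes are 31.4% of the 35, beside 14.5% of all probe sets and 26.9% of the 17597 expressed probe sets. By direction, 4.83% of all probe sets rose and 9.63% fell, and among the expressed ones 6.09% rose and 20.8% fell, so the share of these genes that fell was close to the background of expressed probe sets. The log2 difference was below 0 for 27 of the 35 genes, with a median of -0.23, against -0.15 over expressed probe sets and 0.02 over all. When the arrays were rescaled so that the expressed probe sets had the same median on all 8 (equal medians below), the median of the 35 genes was -0.05, 21 of the 35 were below 0, the same 4 genes rose, and 3 fell, Bbs4, Bbs2 and Wdr35. Of all the called probe sets 66.6% fell as deposited and 25.4% with equal medians, where 20.8% of all probe sets were called. Among the markers, 4 of 14 Sertoli cell genes (Amhr2, Cldn11, Inha and Gata1) rose in knockout spermatids, with a summed signal of 1399 to 1443 in the knockout and 957 to 1052 in wild type, and Sox9, Wt1 and Gata4 stayed under 100 on average in both. Of the 15 spermatid markers 1 was called higher (Tssk6), with a summed signal of 258216 to 263191 in knockout spermatids and 203835 to 208081 in wild type spermatids. Sohlh1, 1 of 9 markers of spermatogonia and early spermatocytes, and Adgre1, 1 of 5 of macrophages and blood, rose too, and Tex15, 1 of 10 of spermatocytes, fell. The part of these markers in the changes below was not tested.

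**Figure D1:**
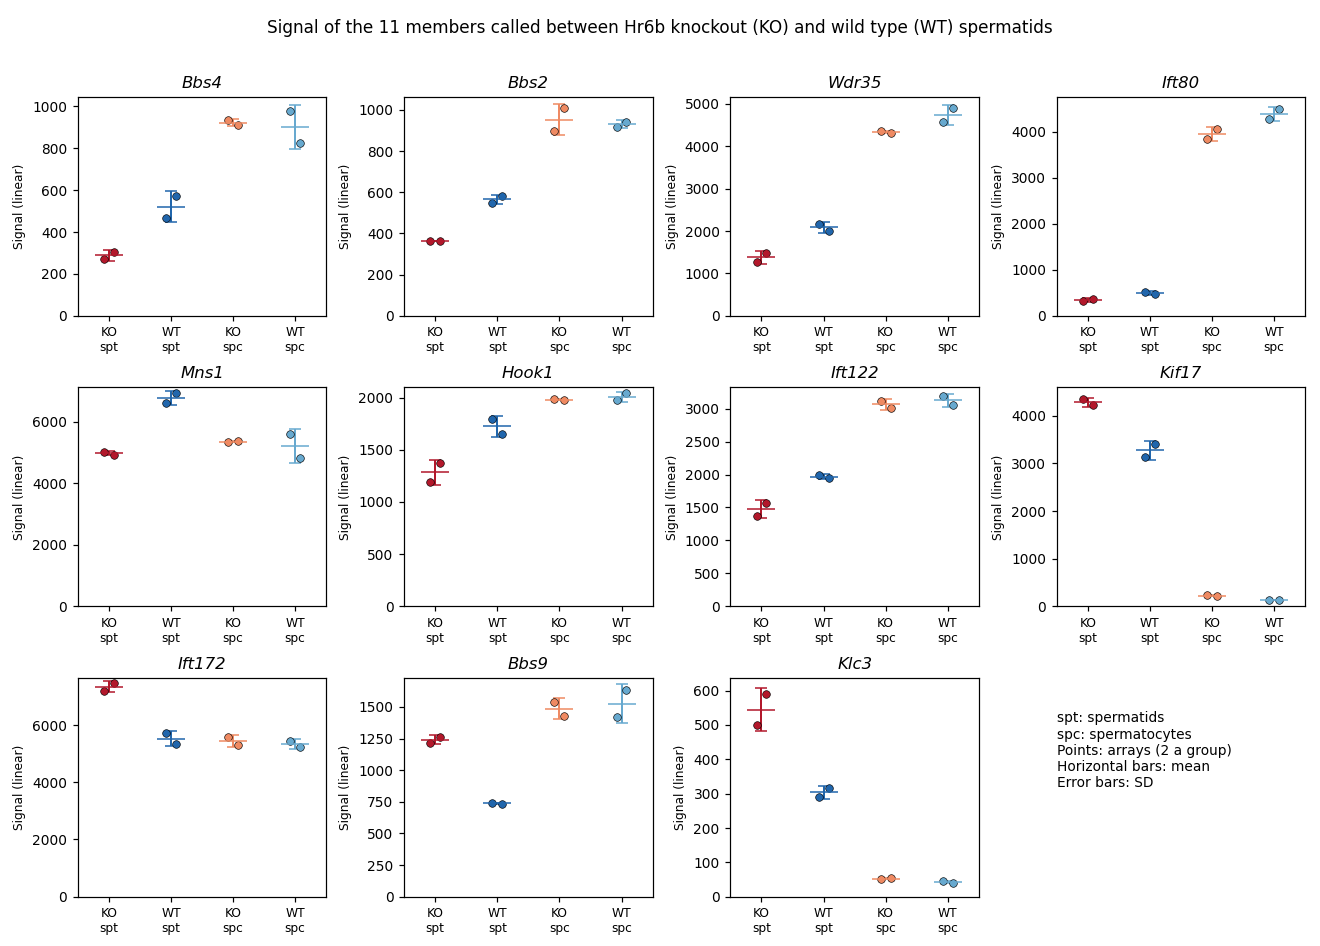
Signal (linear scale) of the 11 genes called between knockout and wild type spermatids, on each of the 8 arrays, with the mean and SD of 2 arrays (KO, knockout; WT, wild type; spt, spermatids; spc, spermatocytes). For Bbs4, Bbs2 and Bbs9 the 2 genotypes stand apart in spermatids and lie close together in spermatocytes. The arrays of Ift172, Ift122, Hook1 and Mns1 also overlap in spermatocytes but not in spermatids.

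The BBSome genes moved in both directions. Bbs4, a subunit that mice need for sperm flagella, had a signal of 270 and 306 in knockout spermatids, against 469 and 574 in wild type spermatids. Both knockout arrays were below both wild type arrays, and Bbs4 fell by 0.85 on the log2 scale (standard error 0.14, adjusted p = 0.00391 from limma). This probe set matches several transcripts by its suffix (1449734_s_at), but the probe sets 1455823_at and 1434460_at fell too, by 1.00 and 0.84 on the log2 scale. The fourth, 1420107_at, had signals of 47.4 to 63.6 in the spermatids of both genotypes, and its log2 difference of 0.13 was not called. Bbs2, also needed for flagella, had 364 and 363 in knockout spermatids, against 550 and 582 in wild type spermatids, without overlap. It fell by 0.64 on the log2 scale (standard error 0.11, adjusted p = 0.00537 from limma). Bbs9, another core subunit of the complex, went the other way, with 1216 and 1266 in knockout spermatids, against 742 and 732 in wild type spermatids. It rose by 0.75 on the log2 scale (standard error 0.12, adjusted p = 0.00315 from limma), a 1.68-fold difference. The other BBSome genes, Bbs1, Bbs5, Bbs7 and Ttc8 (also named BBS8), were not called, with log2 differences of -0.08, 0.21, -0.29 and -0.34. The call of Bbs4 held in all 18 alternative settings that were run, which overlap and are not separate checks. Bbs9 and Bbs2 have a single probe set, and over the 17 settings that could change them the call of Bbs9 held in 17 and that of Bbs2 in 16.

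Among the IFT-B genes, which carry cargo to the flagellar tip, 1 of 11 rose and 1 fell. Ift172, a peripheral IFT-B subunit, had 7207 and 7476 in knockout spermatids, against 5709 and 5336 in wild type spermatids, and rose by 0.41 on the log2 scale (standard error 0.11, adjusted p = 0.0335 from limma). Ift80, likewise a peripheral subunit, had 316 and 367 in knockout spermatids, against 517 and 464 in wild type spermatids, and fell by 0.52 (standard error 0.12, adjusted p = 0.0194 from limma). The arrays of the genotypes did not overlap for either gene. Ift88 and Ift74, core subunits, missed the threshold, with log2 differences of -0.43 (adjusted p = 0.0547 from limma) and -0.35 (adjusted p = 0.0548). Ift88 had 679 and 665 in knockout spermatids, against 975 and 841 in wild type spermatids. Ift27, a small GTPase of the complex, had a log2 difference of -0.35 on its brightest probe set, which was not called, while a second one (1424648_at, 327 and 336 in the knockout, 464 and 443 in wild type) fell by 0.45 on the log2 scale. The remaining 6 IFT-B genes had log2 differences between -0.28 (Ift81) and 0.07 (Traf3ip1).

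All 4 IFT-A genes, which serve the return from the tip, had log2 differences below 0 in knockout spermatids (3 of 4 with equal medians, where Wdr19 had 0.16), and 2 of them were called. Wdr35 had 1273 and 1481 in knockout spermatids, against 2172 and 1998 in wild type spermatids, and fell by 0.60 on the log2 scale (standard error 0.12, adjusted p = 0.00989 from limma). Ift122 had 1374 and 1570 in knockout spermatids, against 1994 and 1946 in wild type spermatids, and fell by 0.42 (standard error 0.12, adjusted p = 0.0357 from limma). Knockout and wild type arrays did not overlap for either gene. A second probe set of each, 1440318_at for Wdr35 and 1427239_at for Ift122, gave log2 differences of -0.41 and -0.16 that were not called. Ift140 had -0.33 (adjusted p = 0.0646 from limma) and Wdr19 -0.03. The dynein-2 genes Dync2h1, the motor's heavy chain, and Dync2li1, its light intermediate chain, had log2 differences of -0.31 and -0.23 that were not called.

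Of the 6 kinesin genes, 2 rose in knockout spermatids. Klc3, a kinesin light chain found on the outer dense fibres and mitochondria of the sperm tail, had 500 and 590 in knockout spermatids, against 291 and 318 in wild type spermatids. It rose by 0.84 on the log2 scale (standard error 0.13, adjusted p = 0.00274 from limma), the largest rise of the 35 genes in this comparison, and was called in all 17 alternatives that could change it. Kif17, the homodimeric kinesin-2 motor, had 4355 and 4221 in knockout spermatids, against 3129 and 3413 in wild type spermatids, and rose by 0.39 (standard error 0.11, adjusted p = 0.0459 from limma). Its other probe sets, 1419827_s_at and 1419826_at, rose as well, by 0.53 and 0.82, so that all 3 probe sets of the gene were called in the same direction. The heterotrimeric kinesin-2 genes Kif3a, Kif3b and Kifap3 had log2 differences of 0.11, -0.18 and -0.06 on their brightest probe sets and were not called. However, dimmer probe sets of Kif3b (1420986_s_at and 1450074_at) fell by 0.50 and 0.62 on the log2 scale, that of Kifap3 (1451783_a_at) by 0.60 and 1 of Kif3a (1455652_at) by 0.56. Kifc1, a minus-end-directed kinesin of the manchette and acrosome, had 108 and 126 in knockout spermatids, against 142 and 147 in wild type spermatids, a log2 difference of -0.31 that was not called.

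Of the 5 linkers, 2 fell in knockout spermatids. Mns1, a protein of the sperm axoneme that is needed for flagellar assembly, had 5023 and 4929 in knockout spermatids, against 6616 and 6928 in wild type spermatids, and fell by 0.44 on the log2 scale (standard error 0.12, adjusted p = 0.0315 from limma). Hook1, which links the manchette to cargo, had 1194 and 1369 in knockout spermatids, against 1796 and 1653 in wild type spermatids, and fell by 0.43 (standard error 0.12, adjusted p = 0.0364 from limma). The knockout arrays were below the wild type arrays for both genes, but the second Hook1 probe set (1439173_at) had 1000 and 1149 in the knockout and 999 and 1161 in wild type, which overlap. Rimbp3, a manchette protein, Cep131, a centriolar satellite protein, and Clip1, which tracks microtubule plus ends, had log2 differences of -0.23, -0.18 and 0.10 and were not called. The count of 11 called genes depended on the arrays. It was 4 without replicate 1 of the knockout spermatids (8 without replicate 2), 4 and 6 without replicate 1 and 2 of the wild type spermatids, 6 without either knockout spermatocyte array and 12 without either wild type spermatocyte array, which enter through the shared spread.

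**Figure D2:**
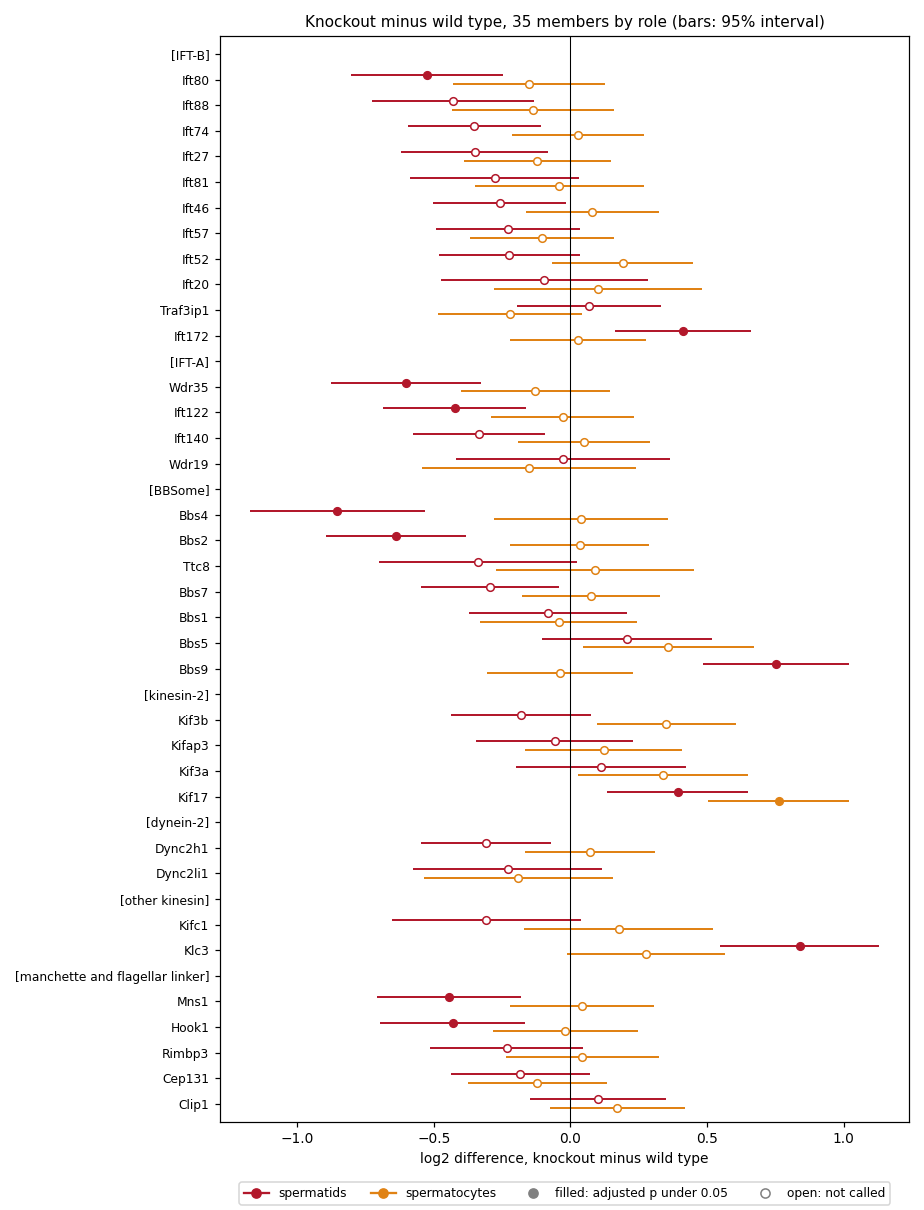
Log2 difference between knockout and wild type for each of the 35 genes by role, in spermatids (dark red) and spermatocytes (orange), with 95% intervals and filled points for called genes. In spermatids 4 genes rose and 7 fell, and in spermatocytes Kif17 alone was called.

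In Hr6b knockout spermatocytes, 1 of the 35 genes was called (2.86%), beside 1.59% of all probe sets and 3.3% of the expressed ones. Those called higher were 1.18% of all and 2.79% of expressed probe sets. The gene was Kif17, with 226 and 214 in knockout spermatocytes, against 135 and 125 in wild type spermatocytes, without overlap. It rose by 0.76 on the log2 scale (standard error 0.11, adjusted p = 0.0101 from limma), but its other probe sets gave 0.25 and -0.16, neither of them called. Kif17 was not called without replicate 1 or replicate 2 of the knockout spermatocytes, nor with the 4 spermatocyte arrays alone. Spermatid markers moved with it: 13 of 15 rose in knockout spermatocytes, and their summed signal was 28484 to 39123 in the knockout and 6782 to 10871 in wild type. Their part in the Kif17 result was not tested. The other 34 genes had log2 differences between -0.22 (Traf3ip1) and 0.36 (Bbs5), and the median of the 35 was 0.04, against 0.02 over expressed probe sets. Bbs4, Bbs2 and Bbs9 had 0.04, 0.03 and -0.04 here.

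Whether loss of Hr6b acted differently at the 2 stages was tested as the difference of its effects, spermatids minus spermatocytes, in the same model. It was called for 3 genes (8.57%), beside 4.6% of all probe sets and 8.35% of the expressed ones. By direction the difference was above 0 and called for 1.46% of all and 1.57% of expressed probe sets, and below 0 for 3.14% and 6.78%. All 3 genes are BBSome genes: Bbs4 with a log2 difference of effects of -0.89 (standard error 0.20, adjusted p = 0.0380 from limma), Bbs2 with -0.67 (standard error 0.16, adjusted p = 0.0453) and Bbs9 with 0.79 (standard error 0.17, adjusted p = 0.0331). Bbs4 had 936 and 910 in knockout spermatocytes, against 977 and 826 in wild type spermatocytes, and these arrays overlap. On the Bbs4 probe sets 1455823_at and 1434460_at the difference of effects was -1.17 (adjusted p = 0.0186 from limma) and -0.95 (adjusted p = 0.0136). Bbs2 had 899 and 1007 in knockout spermatocytes, against 916 and 943 in wild type spermatocytes. Bbs9 had 1542 and 1426 in knockout spermatocytes, against 1416 and 1636 in wild type spermatocytes. The genotypes thus overlapped in spermatocytes and stood apart in spermatids for each of the 3 genes. This pattern is not particular to them, since it also held for genes not called for the difference, such as Ift172, Ift122, Hook1 and Mns1. Without replicate 1 of the wild type spermatocytes 2 of the 3 were called, and none was called with any other single array left out. With equal medians Bbs9 and Klc3 were called, beside 5.97% of all probe sets, and Bbs4 and Bbs2 were not.

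From spermatocyte to round spermatid most of the transport genes changed, in either genotype. In knockout cells 8 of the 35 genes rose and 21 fell, and in wild type cells 9 rose and 19 fell. At least a 2-fold rise was seen for 5 genes and a 2-fold fall for 18 in knockout cells, and for 6 and 14 genes in wild type cells. The called genes are 82.9% of the 35 in knockout cells and 80% in wild type cells, beside 63% and 53.3% of all probe sets and 85.6% and 82.5% of the expressed ones. The shares called were thus close to those of expressed probe sets. By direction, 34.2% of all probe sets rose and 28.7% fell in knockout cells, and 26% rose and 27.3% fell in wild type cells. Among the expressed ones, 30.5% rose and 55.1% fell in knockout cells, and 32.6% rose and 50% fell in wild type cells. The median log2 difference was -1.05 in knockout cells and -0.67 in wild type cells, against -0.55 and -0.34 over expressed probe sets. With equal medians it was -0.52 in knockout cells, where 13 genes rose and 18 fell, and -0.35 in wild type cells, where 13 rose and 19 fell. These counts are not read against the shares as deposited. With equal medians 87.9% of all probe sets were called in knockout and 78.8% in wild type cells, and 23% and 27.4% of those called fell. Under that scaling Ift74, Bbs7, Bbs9, Kif3a, Dync2li1, Kifc1 and Mns1, which were below 0 in knockout cells as deposited, were above 0, as were Kifc1 and Hook1 in wild type cells. Across the 35 genes, which are not independent replicates, the stage differences of the knockout and the wild type, measured on different arrays, had a Pearson correlation of 0.985, and 31 of 35 had the same sign. The same correlation over other probe sets was not computed, so the value is not read as particular to these genes. In these bulk fractions, fewer cells of a type and less RNA per cell cannot be told apart. The summed signal of the 14 Sertoli cell markers also differed, with 1399 to 1443 in knockout spermatids, against 4353 to 5440.5 in knockout spermatocytes, and 957 to 1052 in wild type spermatids, against 4406 to 5216 in wild type spermatocytes. Of these 14, 4 rose and 7 fell in knockout cells, and none rose and 8 fell in wild type cells. Peritubular myoid markers moved the other way, with 5 of 5 called higher in knockout and 3 of 5 in wild type spermatids, and so did macrophage and blood markers, with 3 of 5 and 2 of 5. Most of these markers were dim. In any group at most 5 of the 14 Sertoli cell genes reached a signal of 100 on both arrays, and at most 2 of 5 in each of the other 2 lists. The part of these markers in the stage differences was not tested.

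**Figure D3:**
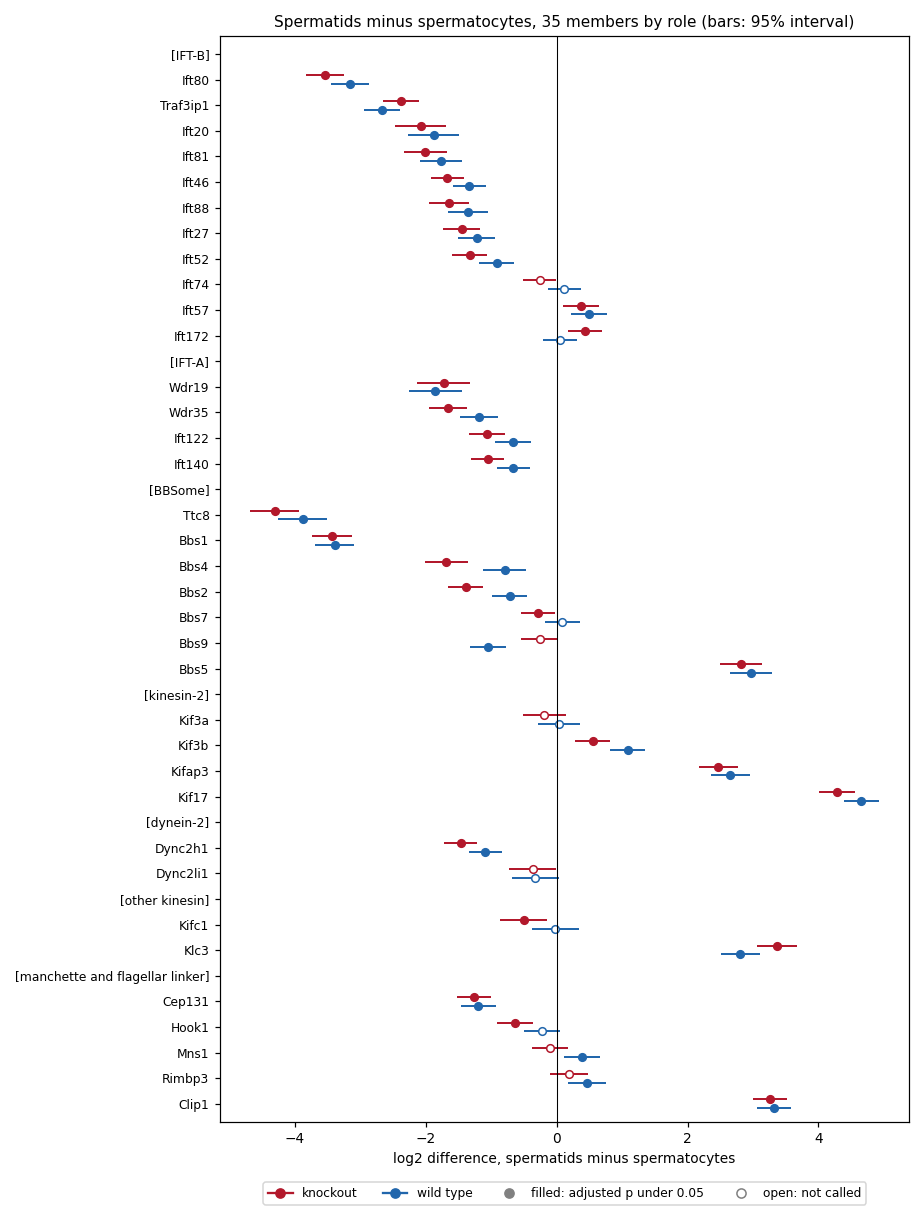
Log2 difference between spermatids and spermatocytes for the 35 genes by role, in knockout (red) and wild type (blue) cells, with 95% intervals and filled points for called genes. On the probe sets used, all 4 IFT-A genes and 8 of 11 IFT-B genes fell in both genotypes, while Kif17, Clip1, Klc3, Bbs5 and Kifap3 rose.

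The train genes mostly fell. All 4 IFT-A genes fell in both genotypes on their brightest probe sets, and of 11 IFT-B genes 8 fell in each. The second Wdr35 probe set went the other way in wild type cells, with a log2 difference above 0. Ift80 had the largest fall of the trains, with 316 and 367 in knockout spermatids, against 3836 and 4051 in knockout spermatocytes, and 517 and 464 in wild type spermatids, against 4267 and 4493 in wild type spermatocytes. This is 11.6-fold lower in knockout and 8.94-fold lower in wild type spermatids, but a second Ift80 probe set (1428329_a_at) gave log2 differences of -1.17 and -0.47, the last of them not called. Traf3ip1, the microtubule-binding IFT-B subunit IFT54, had 70.6 and 71.7 in knockout spermatids, against 347 and 396 in knockout spermatocytes, and 69.0 and 66.9 in wild type spermatids, against 449 and 415 in wild type spermatocytes. It was the IFT-B gene whose spermatid arrays were under a signal of 100 in spermatids. Ift20, the subunit that also sits at the Golgi, fell by 2.08 in knockout and by 1.88 in wild type cells on the log2 scale. Wdr19, the IFT-A gene that fell most, had 176 and 152 in knockout spermatids, against 586 and 499 in knockout spermatocytes, and 153 and 181 in wild type spermatids, against 510 and 706 in wild type spermatocytes. Ift57, Ift74 and Ift172 did not fall. Ift57 rose by 0.37 in knockout cells and by 0.50 in wild type cells. Ift172 rose in knockout cells by 0.43 (adjusted p = 0.00613 from limma) and had 0.05 in wild type cells, and Ift74 had -0.26 and 0.12, neither called. Dync2h1 fell with the trains, by 1.47 in knockout and 1.09 in wild type cells on the log2 scale, while Dync2li1 (-0.37 and -0.33) was not called.

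The BBSome split in the widest way. Ttc8 had 74.6 and 98.8 in knockout spermatids, against 1689 and 1704 in knockout spermatocytes, and 99.0 and 119 in wild type spermatids, against 1469 and 1729 in wild type spermatocytes, a 19.8-fold and a 14.7-fold fall. Bbs1 had 102 and 124 in knockout spermatids, against 1157 and 1278 in knockout spermatocytes, and 121 and 118 in wild type spermatids, against 1243 and 1262 in wild type spermatocytes. It was 10.8-fold lower in knockout and 10.5-fold lower in wild type spermatids. Bbs5, the subunit that binds phosphoinositides in membranes, moved in the opposite direction, with 4390 and 4968 in knockout spermatids, against 653 and 672 in knockout spermatocytes, and 4226 and 3873 in wild type spermatids, against 461 and 579 in wild type spermatocytes. This is 7.05-fold higher in knockout and 7.83-fold higher in wild type spermatids (adjusted p = 3.8e-08 and 2.79e-08 from limma). Ttc8, Bbs1 and Bbs5 each have 1 probe set. On these probe sets, subunits of a single complex thus differed in the direction of their signal between the stages. Bbs2 fell by 1.39 in knockout and by 0.72 in wild type cells on the log2 scale, and Bbs4 by 1.68 and 0.79. Bbs9 fell by 1.05 in wild type cells and had -0.26 in knockout cells (adjusted p = 0.0812 from limma). Bbs7 had 1482 and 1562 in knockout spermatids, against 1853 and 1850 in knockout spermatocytes, and was close to level in wild type cells with a log2 difference of 0.09.

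Of the 4 kinesin-2 genes 3 rose in both genotypes on their brightest probe sets, Kif17, Kifap3 and Kif3b. Kif17 had 4355 and 4221 in knockout spermatids, against 226 and 214 in knockout spermatocytes, and 3129 and 3413 in wild type spermatids, against 135 and 125 in wild type spermatocytes. It was 19.5-fold higher in knockout and 25.2-fold higher in wild type spermatids (adjusted p = 3.51e-09 and 1.53e-09 from limma), the largest rise of the 35 genes, and all 3 of its probe sets rose. Klc3 had 500 and 590 in knockout spermatids, against 51.0 and 54.3 in knockout spermatocytes, and 291 and 318 in wild type spermatids, against 45.9 and 41.0 in wild type spermatocytes. It was thus below a signal of 100 in spermatocytes and above it in spermatids, and rose by 3.37 on the log2 scale in knockout cells and by 2.81 in wild type cells. Clip1 had 2222 and 2376 in knockout spermatids, against 246 and 236 in knockout spermatocytes, and 2087 and 2199 in wild type spermatids, against 212 and 215 in wild type spermatocytes. Kifap3, the non-motor subunit of kinesin-2, had 4423 and 5302 in knockout spermatids, against 902 and 847 in knockout spermatocytes, and 5216 and 4872 in wild type spermatids, against 769 and 839 in wild type spermatocytes. Among the linkers Cep131 fell in both genotypes, by 1.26 in knockout and 1.20 in wild type cells on the log2 scale. Mns1 and Rimbp3 rose in wild type cells by 0.38 and 0.46 and had -0.10 and 0.19 in knockout cells. Hook1 fell in knockout cells by 0.63 on its brightest probe set, but not on its second, and had -0.22 in wild type cells. That these 3 were called in 1 genotype only does not show a difference between the genotypes, and the difference of effects was not called for any of them.

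The direction of several motors, and of the IFT-A gene Wdr35 in wild type cells, rested on the probe set. Of the 35 genes 20 had a single probe set and 15 had several. Kif3a had log2 stage differences in wild type cells of 0.04 and 0.17 on 1420375_at and 1449841_at, which were not called, but of -2.56 and -2.97 on 1455652_at and 1436560_at. On 1436560_at wild type spermatids had 64.3 and 37.0, against 359 and 407 in wild type spermatocytes. Kif3b rose by 1.09 in wild type cells on 1420987_at and fell by 0.75 and 0.51 on 1420986_s_at and 1450074_at. Kifap3 rose by 2.65 on 1417181_a_at and had -0.19 on 1451783_a_at. For Clip1, 4 of 5 probe sets rose in wild type cells, by 1.90 to 3.33, and 1452929_at had -0.37, which was not called. Ift27, Ift57, Ift122, Wdr19 and Kif17 had called differences of the same direction on every probe set. In knockout cells the second probe sets of Kif3b, Kifap3, Clip1, Bbs7 and Hook1 also had the opposite sign, with values given in the last paragraph. Which transcripts the disagreeing probe sets detect was not analysed here.

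**Figure D4:**
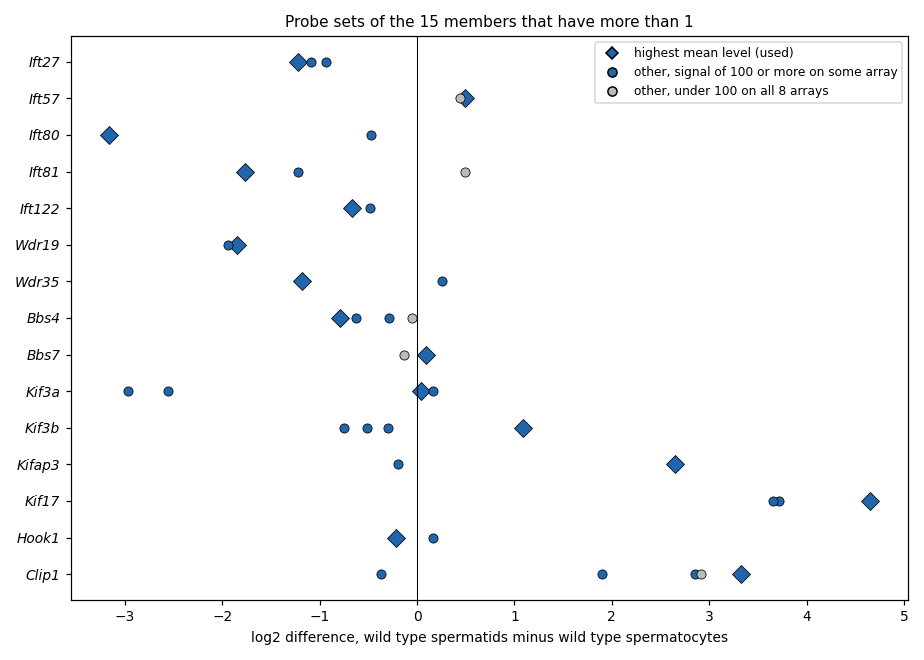
Log2 difference between wild type spermatids and wild type spermatocytes for each probe set of the 15 genes that have more than 1 (diamond, the probe set used; circles, the others; grey, under a signal of 100 on all 8 arrays). The probe sets of Kif3a, Kif3b, Kifap3 and Clip1 lie far apart, and those of Ift27, Wdr19 and Kif17 lie on 1 side of 0.

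Other genes of the same pathways were read as lists, of which 49 of 55 genes were measured. In knockout spermatids 1 of the 49 rose and 16 fell, a share of 34.7% called and 32.7% lower, beside 14.5% and 9.63% of all probe sets and 26.9% and 20.8% of the expressed ones, with a median log2 difference of -0.36, against -0.15 over expressed probe sets. With equal medians 5 rose and 10 fell, with a median of -0.17, where 20.8% of all probe sets were called. The split between rises and falls below thus depended on the scaling. Of 12 genes of the transition zone, the gate at the base of the cilium, 5 fell and 1 rose. Cep290, which bridges membrane and microtubules there, had 277 and 354 in knockout spermatids, against 651 and 668 in wild type spermatids, and fell by 1.07 on the log2 scale (adjusted p = 0.0036 from limma). Tmem216, a membrane protein of the gate, had 635 and 698 in knockout spermatids, against 1133 and 1158 in wild type spermatids, and Ahi1 fell by 0.51. Cep290 and Tmem216 were the 2 genes of this list that fell with equal medians as well. The gene that rose, Cc2d2a, stayed at 20.1 and 26.1 in the knockout and 15.1 and 13.7 in wild type, under the level taken as expressed. Of 5 other BBSome and chaperonin genes 2 fell, Bbs10 and Bbs12, both of the chaperonin that assembles the BBSome. Bbs10 had 178 and 191 in knockout spermatids, against 384 and 331 in wild type spermatids. Of 11 further IFT and dynein-2 genes 3 fell, Ift56 by 0.58, Dync2i1 by 0.45 and Ift43 by 0.42 on the log2 scale, and none rose, whereas with equal medians Ift56 alone fell and Ift70a1 and Cluap1 rose.

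Of 16 other manchette genes 4 fell and none rose in knockout spermatids: Map7, a microtubule-associated protein, by 0.68, Spef2 by 0.66, Iqcg by 0.55 and Spag16 by 0.53 on the log2 scale. With equal medians 3 of these (not Spag16) fell and Hook3 and Clip2 rose. Of 5 ciliary transcription factor genes 2 fell. Rfx4 had 351 and 481 in knockout spermatids, against 811 and 686 in wild type spermatids (adjusted p = 0.00779 from limma). Foxj1, which drives genes of motile cilia, had 908 and 773 in knockout spermatids, against 1358 and 1381 in wild type spermatids (adjusted p = 0.0117). The genotypes did not overlap for either gene, while Rfx1, Rfx2 and Rfx3 had log2 differences of -0.24, 0.01 and -0.12 that were not called. In knockout spermatocytes 1 of the 49 genes was called (2.04%), beside 1.59% of all probe sets and 3.3% of the expressed ones. It was Sun4, a nuclear envelope protein that anchors the manchette. Sun4 had 267 and 210 in knockout spermatocytes, against 137 and 99.8 in wild type spermatocytes, and the spermatid markers moved with it as given above. The difference of the effects was called for 6 genes (12.2%), beside 4.6% of all probe sets and 8.35% of the expressed ones. All 6 were below 0, a direction called for 3.14% of all and 6.78% of expressed probe sets: Bbs10, Cep290, Tmem216, Iqcg, Rfx4 and Foxj1, with values between -1.06 (Rfx4) and -0.66 (Iqcg). With equal medians it was called below 0 for Bbs10, Tmem216 and Rfx4 and above 0 for Cc2d2a and Hook3, beside 5.97% of all probe sets called.

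**Figure D5:**
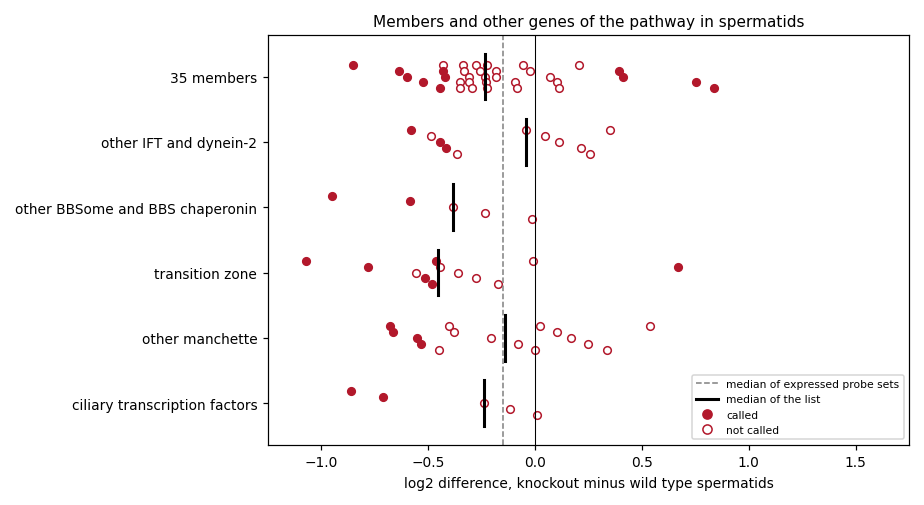
Log2 difference between knockout and wild type spermatids for the 35 genes and 5 lists of related genes (filled, called; open, not called; thick bar, median of the list; dashed line, median of expressed probe sets at -0.15). The medians of the transition zone and of the other BBSome genes are -0.45 and -0.38.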

How the data were processed

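The deposited table holds log2 expression values per probe set for 8 Affymetrix Mouse Genome 430 2.0 arrays (late spermatocytes and round spermatids of Hr6b knockout and wild type mice, 2 arrays a group), which the authors background-corrected, normalized and summarized with RMA. They were used as deposited. The submitters' processing notes name RMA and limma. The genome build is not given in the sources used here. Of 45101 probe sets, 64 controls were left out. Signal is 2 to the power of the log2 value, as mean and SD of 2 arrays.

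A single model with 4 group means covered the 8 arrays (limma 3.58.1 in R 4.3.3, lmFit and eBayes; 4 residual and 5.85 prior degrees of freedom). The contrasts tested, which share arrays and are not independent of each other, were knockout against wild type at each stage, the difference of these effects, and spermatids against spermatocytes in each genotype. Benjamini-Hochberg adjustment covered all 45037 probe sets. The fit was tested on simulated data.

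Genes were named from the platform annotation, from probe sets with 1 symbol. Of the 55 pathway genes 6 had none and were not analysed here. All 35 genes are named, with values per array for those called in a knockout contrast and those of each role that changed most between stages, and at most 4 genes of a pathway list. Probe sets named beside the brightest, pathway genes called only under another scaling and the Rfx genes that were not called were chosen after their values were seen. The members and lists were chosen with earlier results of these data known. Promoter sequences are RefSeq's (GRCm38.p6). The alternatives were a signal filter, cyclic loess, equal medians, fits on 2 groups, a prior trend, the replicate number as a block, other probe sets and leaving out each array. The number of arrays limits the precision.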

Additional observations from a re-analysis of the deposited data

Results flagged for a closer look

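For 3 of the 35 genes (8.57%), all of the BBSome, the effect of the knockout was called as different between the stages. This was the test of the difference itself, in a model over 8 arrays. The share was close to the 8.35% of expressed probe sets called, beside 4.6% of all probe sets. The log2 effect in spermatids minus that in spermatocytes was -0.89 for Bbs4 (adjusted p = 0.0380 from limma), -0.67 for Bbs2 (adjusted p = 0.0453) and 0.79 for Bbs9 (adjusted p = 0.0331). In knockout spermatids the 2 arrays of each gene lay apart from those of wild type, and in spermatocytes they overlapped. The same held for genes not called for this difference, such as Ift172, Ift122, Hook1 and Mns1. With equal medians or cyclic loess Bbs9 was still called, but Bbs4 and Bbs2 were not. None of the 3 calls held in all the alternatives that were run. Of the alternatives that could change it, the call held in 7 of 14 for Bbs9, 5 of 15 for Bbs4 and 3 of 14 for Bbs2.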

How the results depend on the processing

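The results on the 35 genes were recomputed under each alternative, changing 1 choice at a time except where a replicate block was fitted to the spermatid arrays alone, and the pathway lists under cyclic loess and equal medians only. Of 11 genes called between knockout and wild type spermatids, 5 were called with cyclic loess (4 higher, 1 lower), 7 with equal medians (4 higher, 3 lower), 7 with the 4 spermatid arrays alone, 17 with a prior trend and 4 to 12 with 1 array left out. Scaling moved the median of expressed probe sets from -0.15 to 0.02 with cyclic loess and 0.04 with equal medians, and the share of called probe sets that were lower from 66.6% to 50% and 25.4%. Of 18 alternatives the call of Bbs4 held in 18, of Ift80 and Wdr35 in 13, of Kif17 in 8 and of Ift122 and Hook1 in 5. These alternatives are not separate checks: in this comparison, leaving out either array of a spermatocyte group gave the same count. For genes with 1 probe set 17 alternatives could change the call, which held in 17 for Bbs9 and Klc3, 16 for Bbs2 (adjusted p = 0.0608 with cyclic loess), 8 for Ift172 and 7 for Mns1. The Kif17 call in spermatocytes gave a count of 1, which was 0 with the arrays of the 2 groups alone, with second probe sets and with means over probe sets, and 0 to 1 with 1 array left out. The 3 genes whose effect differed between stages became 1 with cyclic loess, 9 with a prior trend and 0 to 2 with 1 array left out. With equal medians 2 were called, and the share of probe sets called for this difference that were below 0 was 22.4%, against 68.3% as deposited. The stage counts stayed between 23 and 32 in wild type cells (28 as reported) and between 25 and 32 in knockout cells (29 as reported), while equal medians moved the share of called probe sets that were lower to 23% in knockout and 27.4% in wild type cells, against 45.6% and 51.2% as deposited. The cause of these shifts was not tested.

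The deviations of same-numbered arrays from their group means had correlations between -0.23 and 0.22. Knockout spermatids had -0.23 with wild type spermatids and 0.22 with wild type spermatocytes, and wild type spermatids had -0.21 with wild type spermatocytes. The labels name no batch, so whether arrays of different groups were handled together is not known. With the replicate block 8 genes were called in spermatids, 1 in spermatocytes and 1 for the difference of effects, and 28 in wild type and 28 in knockout cells between stages. In the 4 spermatid arrays alone, settings chosen after seeing the data, 6 genes were called with the replicate block and 6 with crossed numbers.

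Stage differences changed sign in these cases where the gene was called on at least 1 side. On the second probe set, the log2 difference in wild type cells was 0.25 for Wdr35, -0.75 for Kif3b, -0.19 for Kifap3 and -0.37 for Clip1, and in knockout cells 0.10 for Bbs7, -1.13 for Kif3b, -0.73 for Kifap3, 0.056 for Hook1 and -0.41 for Clip1. With means over probe sets it was -1.33 for Kif3a and -0.12 for Kif3b in wild type cells and -0.70 for Kif3b in knockout cells. In knockout cells it was, with equal medians, 0.28 for Ift74, 0.25 for Bbs7, 0.28 for Bbs9, 0.35 for Kif3a, 0.029 for Kifc1 and 0.43 for Mns1, and with cyclic loess 0.30 for Bbs7, 0.36 for Bbs9, 0.40 for Kif3a and 0.33 for Mns1. Under these 2 rescalings the sign also changed, with neither side called, for Dync2li1 (0.17 with equal medians and 0.20 with cyclic loess) and, with cyclic loess, Ift74 (0.17) in knockout cells, and for Kifc1 (0.29 and 0.28) and Hook1 (0.10 and 0.10) in wild type cells.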
